A study of Mus musculus with 3 samples.

Results

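Ras proteins are small GTPases that relay signals from growth factor receptors: they are active with GTP bound and inactive with GDP bound. Active Ras recruits Raf kinases to the membrane, Raf kinases phosphorylate the MEK kinases, and MEK kinases phosphorylate the ERK kinases. NIH3T3, an established line of mouse fibroblasts, is the line of the classic focus assay, in which an activated Ras or Raf gene makes cells pile up into foci. The genes described here are 7 of the 55573 genes listed in the deposited table and were found by their gene names. They comprise the classical Ras genes Hras and Nras, the R-Ras group of Rras, Rras2 and Mras, and the Raf kinase genes Araf and Braf. All 7 names matched 1 row each.

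UMI-RNAseq was performed in 3 libraries of NIH3T3 cells, which received no treatment and formed 1 condition, so no condition could be compared with another. A unique molecular identifier (UMI) tags each molecule before amplification, so that PCR copies can be removed. The sources do not say whether the libraries came from separate cultures, and an SD over them may therefore cover technical spread only. The values are FPKM, which scale the fragments of a gene by its length and by the depth of the library. The libraries rested on 13959723 to 14423209 fragments, which were recovered from the deposited values.

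The line was checked against marker genes, because the extraction text of the labels mentions retina. Of 12 fibroblast markers, 10 had an FPKM of at least 1 in every library, and the summed level of that list was 9461 to 9578 FPKM. None of 12 retina markers reached this limit in every library, and their summed level was 1.83 to 2.78 FPKM. The retina marker Nrl was listed at 0. The fibroblast markers Postn and Fap stayed below 1 FPKM, with means of 0.4945 and 0.0378, the latter on 3 fragments. Epithelial markers summed to at most 0.597 FPKM and blood cell markers to at most 2.89, of which the lysosomal gene Cd68 made up most.

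Members of one family can exchange reads where their sequences are alike, so the coding sequences of the closest paralogs were compared first. For each pair, the longest identical run was located in the coding sequences, and for the R-Ras and Raf pairs the 75 bases around it are shown. They come from the GENCODE M21 transcripts on GRCm38, in the direction of the gene. Capitals mark the bases that differ between the partners. Hras and Nras share 75.3% of 567 aligned coding bases, and the longest identical run measures 23 nt.

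Rras and Rras2 share 68.2% of 607 aligned bases, again with a longest run of 23 nt. Their stretch joins exons 1 and 2, so the genomic span includes an intron, from 45018125 to 45020130 on the plus strand of chromosome 7 for Rras and from 114060389 to 114117439 on the minus strand of the same chromosome for Rras2. It holds 9 differing bases, fewer than the Raf stretch that follows:
Rras: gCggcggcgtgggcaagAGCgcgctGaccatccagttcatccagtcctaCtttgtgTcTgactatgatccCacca
Rras2: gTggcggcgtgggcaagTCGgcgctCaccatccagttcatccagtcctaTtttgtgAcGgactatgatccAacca

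The kinases Araf and Braf share 64.3% of 1810 aligned bases. Their longest identical run measures 17 nt. The 75-base stretch around it lies in exon 11 of Araf, at chrX:20857650-20857724 on the plus strand, and in exon 16 of Braf, at chr6:39639654-39639728 on the minus strand. It holds 28 differing bases:
Araf: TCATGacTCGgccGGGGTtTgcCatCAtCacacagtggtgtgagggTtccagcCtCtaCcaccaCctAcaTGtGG
Braf: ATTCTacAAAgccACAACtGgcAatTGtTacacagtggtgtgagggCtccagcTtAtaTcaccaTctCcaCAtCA

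Across the pairs of the 5 Ras genes, coding identity ran from 58.4% for Rras and Mras to 75.3% for Hras and Nras. Over all annotated isoforms, Hras, Nras, Rras, Rras2 and Mras shared 0 of their distinct 75-nt words with a transcript of another gene, on either strand. Araf shared 48 of 6860 words with transcripts of other genes, and Braf 72 of 14103. For Braf the partner was Ndufb2, a gene of the respiratory chain on the opposite strand that overlaps the exons of Braf over 146 nt. Whether reads were counted by strand is not given in the sources, and Ndufb2 itself had 1.318 to 1.498 FPKM. The exons of Araf overlap those of Syn1 over 9 nt on the opposite strand. The pseudogene Nras-ps2 was listed at 0.

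Each of the 7 genes had an FPKM of at least 1 in every library, as did 22.2% of all genes listed. The levels fell in the order Rras, Nras, Rras2, Mras, Araf, Braf, Hras in all 3 libraries, and Rras lay 6.49-fold ± 0.0529 (SD, n = 3) above Hras. Over the genes listed here only, Rras, Rras2 and Mras summed to 230.5 ± 10.0 FPKM (SD, n = 3), Hras and Nras to 132.1 ± 4.87, and Araf and Braf to 66.4 ± 2.12. These are not totals of the gene families.

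**Figure D1:**
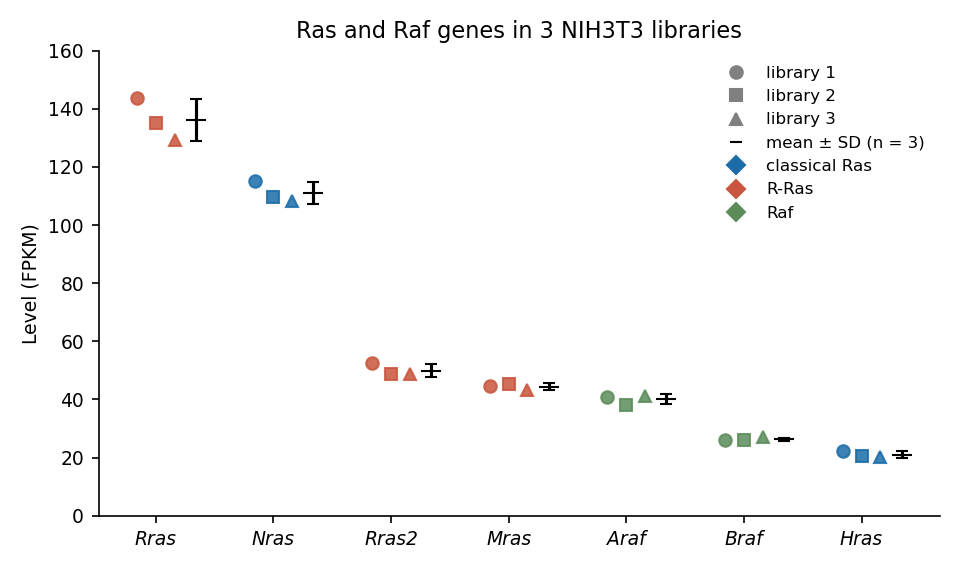
Level in FPKM of each Ras and Raf gene in libraries 1, 2 and 3 (circles, squares and triangles), with the mean and SD over the 3 libraries in black. Rras and Nras sit at 108.2 FPKM or higher in every library, and the other genes at 52.5 or lower.

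Rras encodes R-Ras, which is known for its part in integrin adhesion. In libraries 1, 2 and 3, Rras stood at 143.9, 135.0 and 129.4 FPKM, and the mean was 136.1 ± 7.30 FPKM (SD, n = 3). It ranked 799 of 12905 genes whose mean reached 1 FPKM. Library 1 was the highest, and even the lowest library lay above every value of the other 6 genes. Rras (ENSMUSG00000038387) lies on the plus strand of chromosome 7 from 45017961 to 45021647 of GRCm38 and, like the other 6 genes, is annotated as protein coding. It is the shortest of them. Its FPKM uses a length of 599 nt, the mean of 3 annotated isoforms that measure 317 to 995 nt. This length is shorter than its longest coding sequence, which measures 654 nt without the stop codon.

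Rras2, which encodes the R-Ras relative TC21, gave 52.5, 48.6 and 48.7 FPKM in libraries 1, 2 and 3. The mean was 49.9 ± 2.23 FPKM (SD, n = 3), with library 1 above the others. Rras2 (ENSMUSG00000055723) spans, on the minus strand of chromosome 7, bases 114046782 to 114117781. It has 2 annotated isoforms, of 2275 and 3534 nt, with a mean of 2905 nt. With its only protein-coding isoform as the length, its mean would be 63.8 FPKM. The antisense gene Gm45615 lies opposite Rras2 without touching its exons and had at most 0.218 FPKM.

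Mras encodes a Ras protein that binds Shoc2 and the catalytic subunit of protein phosphatase PP1, and this complex removes an inhibitory phosphate from Raf kinases. Mras had 44.8, 45.3 and 43.2 FPKM in libraries 1, 2 and 3, with a mean of 44.4 ± 1.12 (SD, n = 3). Its values lay close together, and library 1 was not the highest. Mras (ENSMUSG00000032470) spans, on the minus strand of chromosome 9, bases 99385420 to 99437381. Of its partners, Shoc2 had a mean of 40.3 ± 1.07 FPKM (SD, n = 3), and the PP1 catalytic genes Ppp1cc, Ppp1ca and Ppp1cb had 159.2 ± 12.8, 158.6 ± 0.376 and 91.7 ± 1.70. In FPKM as deposited, Mras and Shoc2 thus had similar levels, below those of the 3 phosphatase genes. With the longest isoform as the length, Mras would have 13.2 FPKM, and other lengths were not computed for its partners.

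Among the classical genes, Nras had 115.3, 109.8 and 108.2 FPKM in libraries 1, 2 and 3, which gives 111.1 ± 3.74 (SD, n = 3). Hras had 22.2, 20.6 and 20.1 FPKM, which gives 20.98 ± 1.13. Both were highest in library 1, and their values were far apart in each library. Within a library, Nras lay 5.18-fold, 5.32-fold and 5.39-fold above Hras. Nras and Hras encode closely related proteins of 189 residues, which differ mainly in the tail that anchors them to membranes. Nras (ENSMUSG00000027852) lies on the plus strand of chromosome 3 from 103058285 to 103067914, and Hras (ENSMUSG00000025499) is read from the minus strand of chromosome 7, bases 141189105 to 141194005. Nras ranked 1073 among the 12905 detected genes and Hras 5772, which places Hras above 55.3% of them.

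Of the Raf genes, Araf had 40.8, 38.1 and 41.3 FPKM in libraries 1, 2 and 3, with a mean of 40.1 ± 1.74 (SD, n = 3). Braf, whose kinase has the highest basal activity of the Raf family, had 26.1, 26.0 and 26.9 FPKM, with a mean of 26.3 ± 0.508. Both reached their top value in library 3, but their fragments did not differ between libraries past the counting limit described below. Araf lay 1.56-fold, 1.46-fold and 1.53-fold above Braf. Araf (ENSMUSG00000001127) is on the X chromosome, on the plus strand from 20797814 to 20860519, and Braf (ENSMUSG00000002413) is read from the minus strand of chromosome 6, bases 39603237 to 39725463.

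Neighbours in the order were then compared within each library. The widest step was from Nras to Rras2, with a fold of 2.23 ± 0.0306 (SD, n = 3). Araf lay 1.52-fold ± 0.0518 above Braf, Braf 1.26-fold ± 0.0840 above Hras, and Rras 1.22-fold ± 0.0262 above Nras. The smallest steps were from Rras2 to Mras, with 1.12 ± 0.0501, and from Mras to Araf, with 1.11 ± 0.0737. On the log2 scale these last steps were 0.17 ± 0.06 and 0.15 ± 0.09, so Mras and Araf were separated by less than 2 SDs of their ratio. Flipping the signs of the log2 ratios in an exact permutation test (two-sided) gave p = 0.25 for each of the 6 steps, also after Benjamini-Hochberg adjustment. No smaller p can be had from 3 libraries, so no step could pass 0.05.

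The share of each paralog was taken over the listed genes of its group. Nras made up 84.1% ± 0.263 (SD, n = 3) of the sum of Nras and Hras. In the R-Ras group, Rras held 59.0% ± 0.591, Rras2 21.7% ± 0.391 and Mras 19.3% ± 0.646. Araf held 60.3% ± 0.821 of the sum of Araf and Braf. The shares of Araf and Braf varied the most between libraries, that of Araf from 59.4% to 61.0%. Of the summed FPKM of all 7 genes, Rras held 31.7% ± 0.670 and Nras 25.9% ± 0.0226, whereas Hras held 4.89% ± 0.0937.

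**Figure D2:**
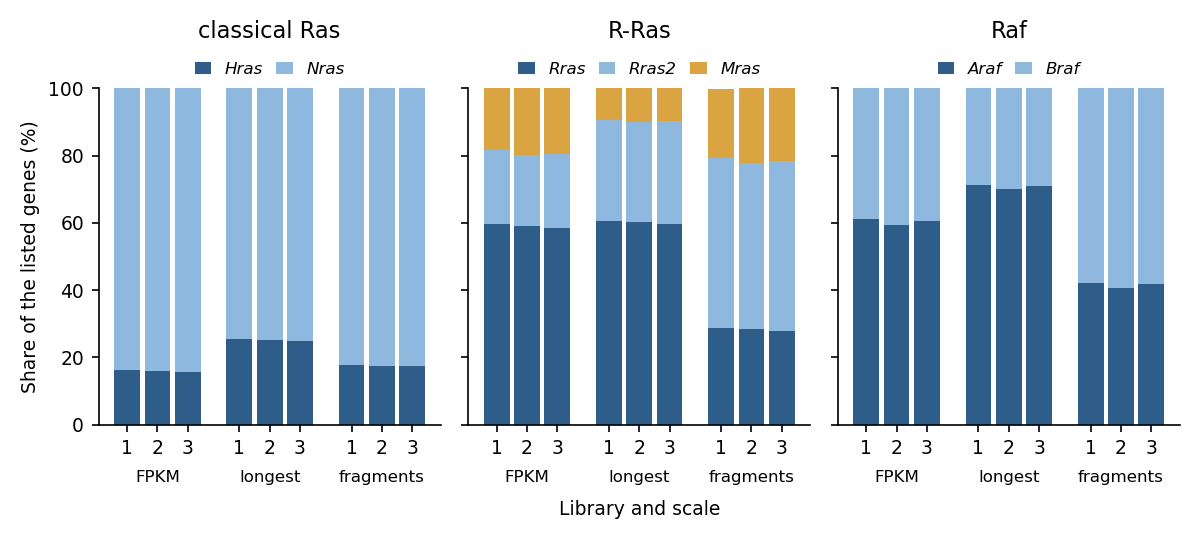
Share in percent of each paralog within its group, for libraries 1, 2 and 3, from FPKM as deposited, from FPKM with the longest isoform as the gene length, and from fragments not divided by length. Nras holds 74.5% to 84.3% on every scale, while Rras holds 59.0% of FPKM on average and 28.2% of fragments.

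The levels and shares rest on the gene length that the authors divided by. With the mean over the annotated isoforms as this length, the fragments of all 7 genes came out as whole numbers in every library, within 0.01. Nras has 9 isoforms of 276 to 4470 nt with a mean of 1352 nt, and its longest isoform exceeds the mean 3.31-fold. The same factor is 3.37 for Mras and 2.80 for Braf, against 1.22 for Rras2 and a median of 1.72 over detected genes. For Rras and Araf, the lengths divided by, 599 and 1619 nt, are shorter than their longest coding sequences of 654 and 1812 nt. The data give 1 value a gene, so which isoforms were present was not measured.

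With the longest isoform as the length, Rras remained the highest with 81.9 ± 4.39 FPKM (SD, n = 3), and Rras2 followed with 41.1 ± 1.83. Nras came after them with 33.6 ± 1.13, so its step over Rras2 turned into a fold of 0.819 ± 0.0113. Araf had 22.7 ± 0.988 and Mras 13.2 ± 0.332, so Araf now lay above Mras. Hras had 11.3 ± 0.605 and Braf 9.41 ± 0.181. With the mean of the protein-coding isoforms, a scale added after the values were seen, Araf likewise lay above Mras and Hras above Braf, but Nras stayed above Rras2. On these 3 scales per length, Rras was the highest gene and Hras and Braf were the lowest ones. Nras lay above Hras by 2.98-fold to 6.19-fold, and Araf above Braf by 1.52-fold to 2.57-fold.

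**Figure D3:**
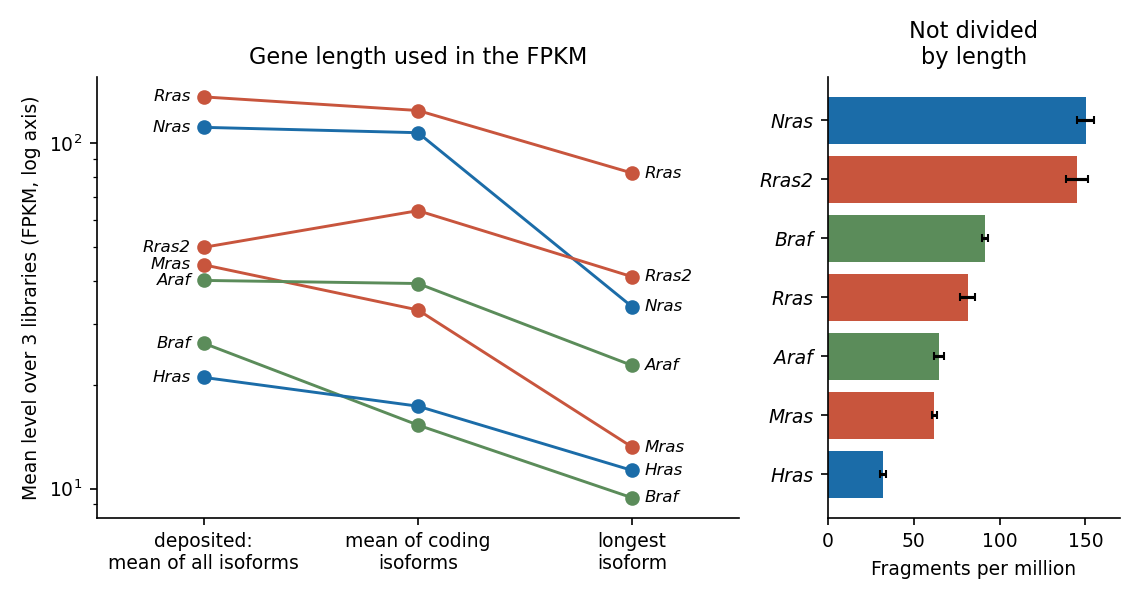
Left, mean level over 3 libraries (FPKM, log axis) with the deposited length, the mean length of coding isoforms, or the longest isoform. Right, fragments relative to the library total, not divided by length (bars, mean with SD, n = 3). Rras is at the top of each length scale, the line of Nras drops below that of Rras2 with the longest isoform, and Nras has the most fragments.

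In fragments, the depth behind each gene, the sequence was another one. Nras had the most, with 2249, 2072 and 2093 fragments in libraries 1, 2 and 3, and Rras2 was next with 2200, 1972 and 2023. Braf followed with 1307, 1261 and 1338, above Rras with 1243, 1129 and 1109. Araf had 953, 860 and 956 fragments and Mras 901, 883 and 862. Hras rested on the fewest, with 488, 438 and 437. These numbers are not levels, since a longer transcript gives more fragments per molecule. Relative to library totals, Braf had 1.41-fold ± 0.0487 (SD, n = 3) the fragments of Araf, although its FPKM was lower.

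The spread between libraries was set against counting error. For Mras and Braf, the coefficient of variation of 2.51% and 1.93% was below the 3.37% and 2.77% that counting error alone gives. For Rras it was 5.36% against 2.94%, and the 4.46% of Rras2 likewise exceeded its counting error. Nras had 3.37% against 2.16%, Araf 4.35% against 3.29%, and Hras 5.36% against 4.69%. A chi-square statistic of the fragments passed the limit that 5% of genes exceed by counting error for 2 of the 7 genes, Rras and Rras2. Of the 13569 genes with at least 10 fragments in each library by the pooled proportion, 9.53% passed it. Without library 1, 0 of the 7 genes passed the limit, against 6.98% of all genes. Without library 2 Nras passed it as well, so that 3 genes did, against 9.09% of all genes. Without library 3 it was Rras2 alone, against 8.98%.

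Library 1 was thus the highest for 4 genes, namely Rras, Nras, Rras2 and Hras. The share of all genes that were highest in library 1 was not computed, so this count is a description only. For Nras and Hras, the fragments of the 3 libraries did not differ past the counting limit. Against the mean of the other libraries, Hras was higher there by 0.13 on the log2 scale, Rras by 0.12, Rras2 by 0.11 and Nras by 0.08. These differences exceeded those of 93.6%, 92.8%, 91.1% and 85.7% of the 8201 genes whose mean reached 10 FPKM. Braf was lower in library 1, with a log2 difference of -0.02. Over these 8201 genes, the median difference rose with the GC content of the transcripts, from -0.0104 in the lowest of 5 GC classes to 0.0178 in the highest. Hras and Rras, with 57.6% and 56.9% GC, belong to the highest class, while Rras2 and Nras, with 45.7% and 45.0%, belong to class 2 from the bottom. The part of GC content in the difference of library 1 was not tested.

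To place the members in their pathway, 117 genes in 10 lists were read in the same libraries. Of these, 94 had an FPKM of at least 1 in every library, and 8 were listed at 0. Over all 55573 genes listed, 22.2% had such an FPKM and 29380 were listed at 0. The counts of the single lists below are to be read beside that share. A gene at 0 had 0 fragments counted, and an expected number of up to 3 fragments can still give 0 in a single library by counting error alone. The genes listed at 0 had 0 fragments in all 3 libraries, for which this limit is too high.

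Ras is switched on by exchange factors that release GDP. Of 8 such genes, Sos1 and Sos2 passed an FPKM of 1 in every library, a share near the 22.2% over all genes listed. Sos2 had 27.4, 29.1 and 27.2 FPKM in libraries 1, 2 and 3, and Sos1 had 12.7, 13.0 and 12.3. In FPKM as deposited, Sos2 lay 2.21-fold ± 0.0393 (SD, n = 3) above Sos1. Sos1 had more fragments, 3772 over all libraries against 3407 for Sos2, so this order rests on the gene lengths divided by. Rasgrp3, an exchange factor that responds to diacylglycerol, came next with a mean of 0.940 ± 0.107 FPKM, and Rasgrp1, the form known from T cells, was listed at 0. Sos proteins are brought to receptors by adaptors, of which 9 of 10 were detected. The highest were Shc1 with 88.3 ± 2.48 FPKM, the phosphatase gene Ptpn11 with 52.1 ± 0.972 and Frs2 with 39.2 ± 1.10. Shc3, known from neurons, rested on 1 fragment in each library.

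GTPase-activating proteins switch Ras off by speeding up GTP hydrolysis. Of 10 such genes 8 were detected, with the highest means for Rasa3 (175.5 ± 2.89 FPKM, n = 3) and Rasa1 (130.1 ± 3.88). Rasa4 had 42.3 ± 1.13 FPKM, and Rasal3 was listed at 0. In FPKM as deposited, Rasa3 lay above all 7 Ras and Raf genes in every library, and Rasa1 had a mean between those of Nras and Rras. In fragments over all libraries, Rasa1 had 6710, against 6414 for Nras and 3481 for Rras, so its place between them rests on the lengths divided by. Other lengths were not computed for Rasa3 and Rasa1. Ras proteins are made to bind membranes by lipid attachment, and all 10 genes for these steps and for Ras transport were detected. They spanned 12.6 ± 0.678 FPKM for the palmitoyltransferase subunit Zdhhc9 to 50.4 ± 2.91 for Pggt1b, a prenyltransferase subunit. Pde6d, a carrier of lipid-modified Ras, had 46.5 ± 1.39 and Fnta, another prenyltransferase subunit, 41.2 ± 3.71.

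Chaperones, 14-3-3 proteins and scaffolds act on Raf kinases, and 18 of 19 of their genes were detected. The chaperone genes Hsp90ab1 and Hsp90aa1 had 2176 ± 21.04 and 595.1 ± 27.5 FPKM (SD, n = 3), and the 14-3-3 gene Ywhaz had 530.9 ± 6.75. In FPKM as deposited, the scaffold Ksr1, a relative of the Raf kinases, had 8.21, 7.44 and 8.40, below Araf and Braf in every library. With the longest isoform as the length, Braf would have 9.41 FPKM, and other lengths were not computed for Ksr1. Ksr2, the paralog of Ksr1, had 0.162, 0.223 and 0.200 FPKM on 64 fragments in all.

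The kinases that act after Raf were all detected. Mapk3, which encodes ERK1, had 166.0, 157.5 and 161.2 FPKM in libraries 1, 2 and 3. Map2k1, which encodes MEK1, had 135.3, 139.3 and 140.2 FPKM, and Map2k2, which encodes MEK2, had 96.1, 83.0 and 83.5. In FPKM as deposited, each of these genes lay above Araf and Braf in every library, and other lengths were not computed for them. The fold of Map2k1 over Map2k2 was 1.41 in library 1 and 1.68 in both other libraries. FPKM measures RNA, and protein was not measured.

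Other effectors that bind active Ras were detected for 9 of 10 genes. Rin1, which links Ras to Rab5 and Abl, had 180.8 ± 6.39 FPKM, the adhesion gene Afdn 102.1 ± 2.49 and the Ral exchange factor Rgl2 59.3 ± 1.82. Plce1, a phospholipase C, stayed at 7 fragments in all. Feedback inhibitors of the cascade were detected for all 12 genes. The ERK phosphatase gene Dusp6 had 157.8 ± 1.16 FPKM, the phosphatase genes Dusp4 and Dusp7 had 53.3 ± 0.961 and 50.2 ± 0.584, and Spry3 was the lowest with 1.99 ± 0.0812. Genes known to respond to ERK were detected for 10 of 10, with Ccnd1, the gene of cyclin D1, at 178.1 ± 2.52 FPKM, Ier3 at 167.4 ± 1.48, Epha2 at 122.8 ± 1.36 and Epha4 the lowest at 2.39 ± 0.224. With 1 condition, these values are levels and not responses.

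The rest of the Ras family divided into detected genes and genes near 0. Of 24 GTPase genes 12 were detected, led by Rap1b with 139.8 ± 3.65 FPKM (SD, n = 3), Rap1a with 83.7 ± 4.11 and Rheb, the activator of mTORC1, with 67.6 ± 2.03. In FPKM as deposited, Rap1b thus had a level like that of Rras, and Hras was similar to Rhebl1 with 22.0 ± 2.02. Other lengths were not computed for Rap1b and Rhebl1. The other 12 had at most 0.207 FPKM on average, and 6 of them were listed at 0, among them Eras, the Ras gene of embryonic stem cells. The median over this list was 2.05 FPKM, against 44.4 FPKM over the 7 Ras and Raf genes, which were not chosen at random.

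**Figure D4:**
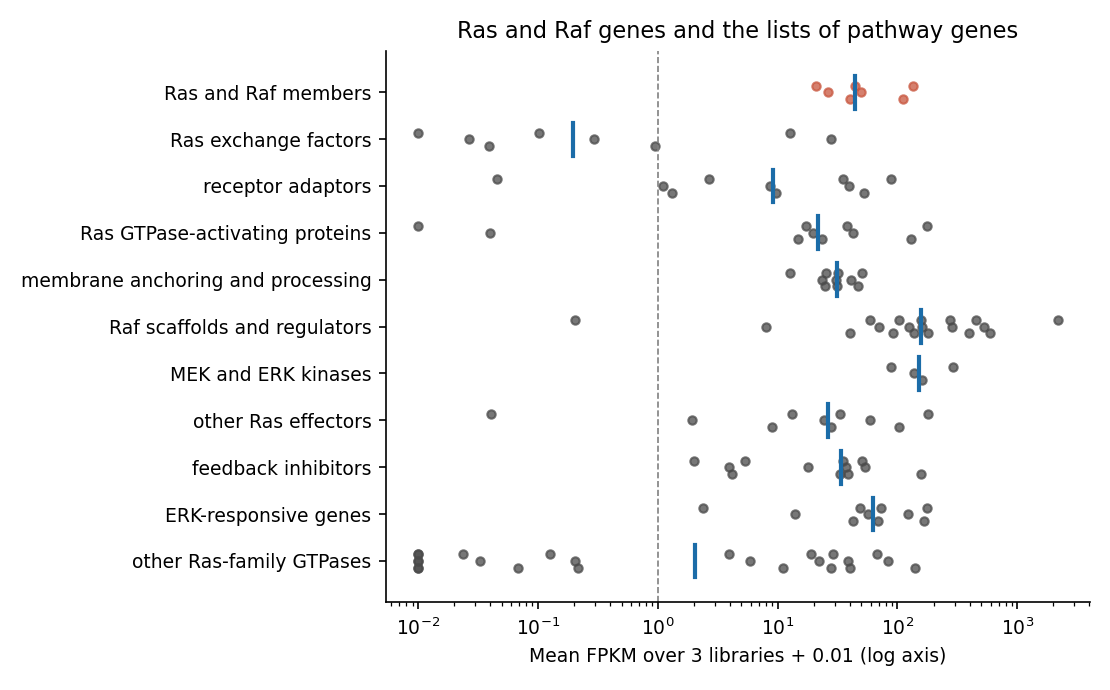
Mean FPKM over 3 libraries plus 0.01 (log axis) of each gene in the Ras and Raf set (red) and in 10 lists of pathway genes (grey), with the median of each list as a blue bar and an FPKM of 1 as a dashed line. The MEK and ERK genes lie at 87.5 FPKM or higher, whereas the exchange factors other than Sos1 and Sos2 lie below 1.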

How the data were processed

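Per the methods, UMI-mRNA sequencing of NIH3T3 cells was done in read pairs, after checks of the total RNA. UMIs were found with UMI-tools (1.0.0), reads were mapped with Hisat2 (2.0.4 in the submitters' processing notes), copies with the same position and UMI were removed, and HTSeq 0.6.1 counted reads per gene. The authors deposited FPKM values, 1 column per library, and both deposited tables hold the same values. The build and annotation of the counting are not given in the sources used here. Of the sample columns, 0 were left unused. No count model was fitted.

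GENCODE M21 on GRCm38 gave isoform lengths for 55480 of 55573 gene IDs. The library total follows from genes with 1 isoform, and FPKM multiplied by mean isoform length and total gave whole fragments (within 0.01) for 99.2% of 26178 genes. On simulated fragments for 55480 genes, 3 of 3 totals were returned exactly. Of 200 genes changed 2-fold in 1 library, 100% passed the counting limit, and so did 5.16% of 9548 unchanged genes. These changed and unchanged genes all had at least 100 expected fragments, whereas the 9.53% above rests on genes with at least 10. In the real data, 10.6% of 9870 genes with at least 100 expected fragments passed the limit. Python 3.11.15, numpy 2.4.6, pandas 2.3.3, scipy 1.17.1, Biopython 1.88 and matplotlib 3.10.9 were used. Coding sequences were aligned globally, each from the isoform with the longest complete coding sequence.

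The members and lists were chosen with earlier results of these data known. Genes named are the members, paralog pairs of the core cascade, the 3 highest and the lowest gene of each list, pseudogenes and overlapping genes. Shoc2, the PP1 genes, Rhebl1, Eras, Postn, Fap, Nrl and Cd68 were named after their values were seen. Some genes and sequences of these families and lists are not reported here. Alternatives were leaving out each replicate, other scalings, lengths, pseudocounts and limits, and added pseudogenes.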

Additional observations from a re-analysis of the deposited data

How the results depend on the processing

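In all, 237 alternative values were computed, and the step from gene to gene reversed in 8 of 48. These 48 include settings that could not reverse a step, so the 8 are not a rate of stability. With fragments not divided by length, the log2 ratio was -0.88 for Rras to Nras, -0.06 for Mras to Araf and -0.50 for Araf to Braf. With the longest isoform it was -0.29 for Nras to Rras2, -0.78 for Mras to Araf and -0.26 for Braf to Hras. With protein-coding isoforms, added after the data were examined, it was -0.25 for Mras to Araf and -0.18 for Braf to Hras. These settings change only the length divided by. Leaving out a replicate or adding a pseudocount of 1 or 0.1 reversed no step, but neither could do so. The order was the same in all 3 libraries, and the same constant added to both genes keeps their order.

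Rescaling each library to an equal FPKM sum (TPM) gave means of 197.1 for Rras, 161.0 for Nras, 72.3 for Rras2, 64.4 for Mras, 58.0 for Araf, 38.2 for Braf and 30.4 for Hras. The longest isoform gave 81.9, 33.6, 41.1, 13.2, 22.7, 9.41 and 11.3 FPKM in the same order. Protein-coding isoforms gave 124.3 for Rras, 107.2 for Nras, 63.8 for Rras2, 32.9 for Mras, 15.3 for Braf and 17.3 for Hras.

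From fragments, the shares were 17.5% for Hras, 82.5% for Nras, 28.2% for Rras, 50.3% for Rras2, 21.5% for Mras, 41.5% for Araf and 58.5% for Braf. From the longest isoform they were 25.1%, 74.9%, 60.2%, 30.1%, 9.69%, 70.7% and 29.3%, and from protein-coding isoforms 13.9%, 86.1%, 56.2%, 28.9%, 14.9%, 72.0% and 28.0%, in the same order. Nras-ps2 is listed at 0, so adding it could not change a share.

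Among all genes listed, the percentile was 98.56 for Rras and 89.61 for Hras, and among protein-coding genes 93.07 and 48.71. The number of members past the counting limit ranged from 0 to 3 when each replicate was left out in turn, against 6.98% to 9.09% of 13569 genes. Libraries could not be paired between groups because they form 1 group, whereas neighbouring genes were compared within each library.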
